A study of Homo sapiens with 20 samples.

Results

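Transcripts of 9 apolipoproteins and of MTTP, the microsomal triglyceride transfer protein, were followed through the differentiation of HepaRG cells, with and without dimethyl sulfoxide (DMSO). The 10 genes are APOA1, APOA2, APOA4, APOB, APOC1, APOC3, APOE, APOH, APOM and MTTP. They were chosen by symbol: every probe whose RefSeq accession maps to one of them was taken, which gave 12 of the 42405 probes of the array. All 10 passed the filter on dim probes and are among the 22224 genes tested. HepaRG is a single human hepatoma line with progenitor properties that gives hepatocyte-like and biliary-like cells in the same culture. The microarrays measured total RNA from 5 conditions with 4 independent cultures each. Progenitors were collected at day 4 after seeding (D4) and committed cells at day 15 (D15). Cells were then kept to day 30 either in the same medium (D30 − DMSO) or with 2% DMSO from day 15 to day 30 (D30 + DMSO). In the last condition DMSO was taken away at day 30 and cells were collected 4 days later, at day 34 (D34 ± DMSO). Serum, insulin, hydrocortisone and antibiotics were in the medium of every condition. No array carried cells kept with DMSO to day 34, so the end of DMSO and the added days cannot be told apart.

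Apolipoproteins are the protein part of lipoproteins, the particles that carry triglyceride and cholesterol in plasma. APOB is the backbone of the very-low-density lipoprotein (VLDL) that hepatocytes secrete, and MTTP loads lipid onto it in the endoplasmic reticulum. APOA1 and APOA2 are the main proteins of high-density lipoprotein, APOC1, APOC3 and APOE are exchangeable proteins that move between particles and set how they are cleared, APOA4 and APOM travel on part of the particles, and APOH binds phospholipids in plasma. Most of these proteins are made mainly in the liver, and their genes are known targets of hepatocyte nuclear factors. APOA4, APOC3 and APOA1 are neighbours on chromosome 11, where APOA5 lies beside them, and APOE and APOC1 are neighbours on chromosome 19 with APOC4 and APOC2.

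Levels are given as the log2 of the background-corrected signal relative to the 75th percentile of the same array, so that 0 is the level of that percentile. They rank conditions within a gene and not genes against each other, since each probe has its own brightness. The 75th percentile of the raw signal was between 283 and 530 over the 20 arrays, 61.1% to 74.2% of the spots were well above background, and replicates of a condition correlated at r = 0.955 to 0.992 over the tested genes. A gene was called changed between 2 conditions at an adjusted p below 0.005 in limma and more than 2-fold, and p-values were adjusted over all 22224 genes. RNA was taken from whole cultures, so a lower level can be fewer cells of a type or less RNA per cell, and these cannot be told apart. No spot of the 10 genes was saturated. Feature Extraction flagged 23 of their 760 spots as outliers, 19 of them of APOB, and these were left out. The arrays lie on 4 slides, and slide 4 holds 1 array of D4, D30 − DMSO and D34 ± DMSO but 2 of D15 and 2 of D30 + DMSO. All D30 + DMSO arrays lie on slides 3 and 4, while every other condition also has arrays on slide 1 or 2. Slide 4 was scanned in a session of its own. Values within a slide are therefore given beside the changes called.

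RefSeq promoter windows, which run from 250 bases before to 50 bases after a transcription start, were on hand for 7 of the 10 genes, in 10 windows. APOA1, APOB and APOC3 had none. The 100 bases before the start are shown for 2 genes: APOA4, the gene that moved most with DMSO, and MTTP, where 1 of 2 windows held motifs described here. Capitals mark a motif, and all runs are 5′ to 3′ on the strand of the gene in GRCh38.p14.
APOA4 (chr11:116823305-116823404, minus strand): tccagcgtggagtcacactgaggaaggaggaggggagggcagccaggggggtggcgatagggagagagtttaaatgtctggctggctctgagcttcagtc
MTTP (chr4:99574724-99574823, plus strand, the second of its 2 listed starts): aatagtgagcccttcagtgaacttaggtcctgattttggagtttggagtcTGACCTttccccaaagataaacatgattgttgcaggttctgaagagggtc
In MTTP the capitals are the nuclear receptor half-site AGGTCA read on the other strand, 50 bases before the start, and 13.8% of the 35116 RefSeq promoter windows hold at least 1 copy on either strand. A TATAAA lies on the other strand of that MTTP window, 227 bases before the start, and 4049 of all windows have one (11.5%). The longer letters CAAAGTCCA, a site type of HNF4 (0.384% of windows), were in none of the 10 windows on either strand. Nor were CAAAGGTCA (0.407%), which are part of a direct repeat of half-sites with 1 base between. Whole repeats and inexact copies were not searched. None of these 4 motifs was in the windows of APOA4, APOA2, APOC1, APOE and APOM. These are matches of letters only.

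**Figure D1:**
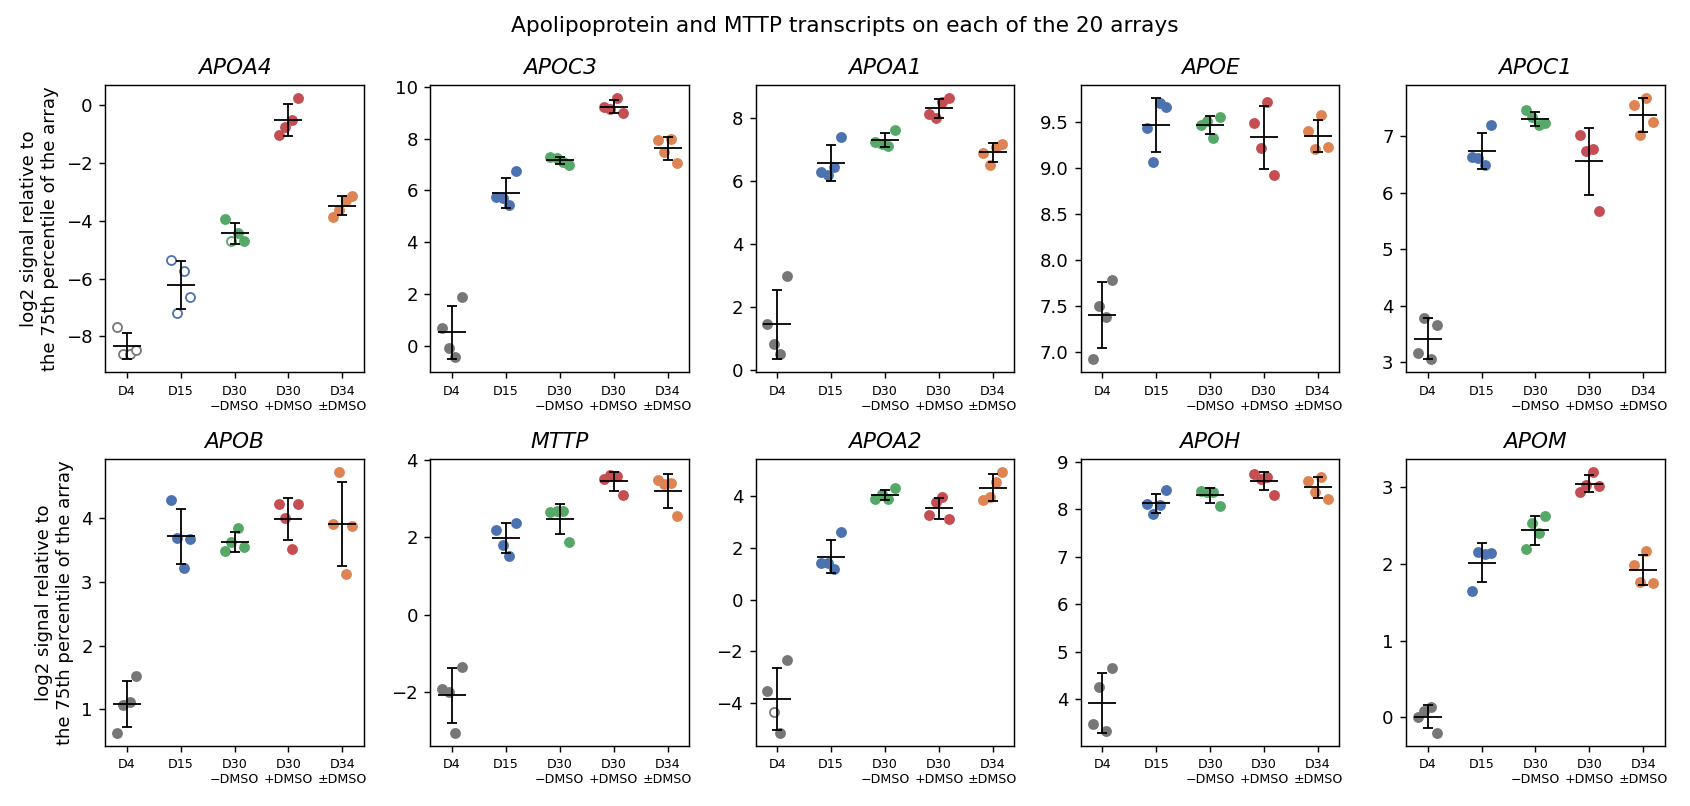
Log2 signal relative to the 75th percentile of the array (y axis, own scale in each panel) for the 10 genes in the 5 conditions (x axis). Each point is 1 of 4 arrays, open where the probe was not well above background, and bars are mean ± SD. The 9 genes other than APOA4 are lowest at D4, APOA4 stands at -1.01 to 0.26 at D30 + DMSO and nowhere else above -3.13, and APOE stays between 8.92 and 9.71 from D15 on.

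Between D4 and D15, before any DMSO, all 9 genes measured at D15 rose. The fit called all 10, against 5.68% of all tested genes called higher and 3.82% called lower, and the median change of the 10 was 3.68 beside 0.015 over all genes. The call of APOA4 is not a measured change, because all 8 arrays of both conditions saw its probe only at background. APOA2 rose most, from -3.84 ± 1.20 to 1.66 ± 0.65 (log2 mean ± SD, n = 4 arrays), which is 45.1-fold with a log2 change of 5.49 ± 0.45 (SE) and an adjusted p of 3.58e-08 in limma. At D4 its probe was above background on 3 of 4 arrays. The other core protein of high-density lipoprotein, APOA1, went from 1.45 ± 1.1 to 6.58 ± 0.57, which is 34.9-fold. Both started from levels that differed widely between the D4 cultures: APOA1 stood at 1.48, 0.82, 0.53 and 2.99 on the 4 arrays, and APOA2 at -3.53, -4.34, -5.15 and -2.34. Replicate 4 was the highest in both. No D4 array reached a D15 array for any of the 9 measured genes, a count not set against the share of all genes.

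Of the exchangeable apolipoproteins, APOC3, an inhibitor of the clearance of triglyceride-rich particles, rose 41.9-fold, from 0.51 ± 1.03 to 5.90 ± 0.57. APOC1, which also slows particle uptake, rose 9.95-fold, from 3.42 ± 0.36 to 6.74 ± 0.32. APOE, the ligand through which remnants bind their receptors, rose 4.20-fold, from 7.39 ± 0.36 to 9.46 ± 0.29, the second smallest rise of the 9. For the makers of VLDL, APOB went from 1.08 ± 0.36 to 3.72 ± 0.43, a 6.21-fold rise, and MTTP from -2.08 ± 0.71 to 1.97 ± 0.38, a 16.6-fold rise. APOH rose 18.3-fold, from 3.93 ± 0.63 to 8.12 ± 0.21. APOM, the carrier of sphingosine-1-phosphate on high-density lipoprotein, rose 4.03-fold, from 0.01 ± 0.15 to 2.02 ± 0.25. The adjusted p of these 9 genes in limma ran from 4.07e-10 for APOH to 1.06e-06 for APOB. Within slides 2, 3 and 4, which hold both conditions, the log2 difference of the 9 genes was between 1.63 and 6.58.

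From D15 to D30 − DMSO none of the 10 passed the test in limma, which called 3 of all genes higher (0.0135%) and 0 lower (0%). The methods' t-test called 0 of all genes higher and 0 lower, so its lack of calls says nothing of the 10. The median log2 change of the 10 was 0.53, beside -0.003 over all genes. In limma 5 of the 10 had an unadjusted p under 0.05, a count not set against the share of all genes. APOA2 had the largest value, from 1.66 ± 0.65 to 4.05 ± 0.20, a log2 difference of 2.39 ± 0.45 (SE) with an adjusted p of 0.0767 in limma. With normexp background correction in place of that of Feature Extraction the difference was 2.34 with an adjusted p of 0.000811, which passes. All 4 arrays of APOA2, APOC3 and APOM at D30 − DMSO lay above all 4 at D15, again without the share of all genes beside it. The differences were 1.26 for APOC3 (adjusted p 0.934) and 0.42 for APOM (adjusted p 1). APOA4 came above background on 3 of 4 arrays at D30 − DMSO. At D15 only the background was seen, so this level was set against the lowest signal above background of the D15 arrays. It was 1.24-fold that signal, which is no strict bound, since the D30 − DMSO mean includes an array not above background. APOE moved by 0 and APOB by -0.09, with overlapping arrays.

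DMSO addition was tested by D30 + DMSO against D30 − DMSO, cells of the same day. APOA4 and APOC3, neighbours on chromosome 11, rose, which is 2 of the 10 genes beside 1.73% of all genes called higher. None of the 10 fell in limma or in the methods' t-test, beside 4.14% of all genes called lower, and 1 of them, APOC1, was lower at an unadjusted p under 0.05. The median log2 change of the 10 was 0.49, and 0.04 over all genes. APOA4, which is known mainly as an intestinal apolipoprotein in humans, rose most. It stood at -3.92, -4.68, -4.41 and -4.70 on the D30 − DMSO arrays and at -1.01, -0.74, -0.52 and 0.26 on the D30 + DMSO arrays. In units of signal scaled to a common 75th percentile of 389, that is 15.0 to 25.8 without DMSO and 193 to 465 with it, so the arrays did not overlap, and the probe was above background on 3 of the 4 arrays without DMSO. The log2 change was 3.92 ± 0.36 (SE), or 15.2-fold, with an adjusted p of 4.1e-07 in limma. At D15 and D4 only background was seen. The D30 + DMSO level was 18.9-fold the lowest signal above background of the D15 arrays, and 20.7-fold that of the D4 arrays. With normexp, which adds an offset of 50 that narrows changes of dim probes, the log2 change was 2.08 (adjusted p 1.08e-07). Within slides 3 and 4, which hold both conditions, APOA4 differed by 3.04 and 4.57.

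APOC3 stood at 7.30, 7.25, 7.10 and 6.99 without DMSO and at 9.22, 9.13, 9.57 and 8.98 with it. All 4 DMSO arrays were above the others, by 2.06 ± 0.38 (SE) on the log2 scale, or 4.18-fold, with an adjusted p of 0.000726 in limma, and by 1.88 and 2.29 within slides 3 and 4. APOA1, the next gene on the chromosome, stood at 7.24, 7.19, 7.12 and 7.62 without DMSO and at 8.13, 7.99, 8.50 and 8.64 with it. Its arrays did not overlap either, but its log2 difference of 1.02 ± 0.39 (SE) had an adjusted p of 0.0824 in limma and it was not called. A second APOA1 probe differed by 1.07 with an adjusted p of 0.0788. APOA5, which is no member of the 10 but lies at the other end of the same cluster and promotes triglyceride hydrolysis, rose as well, from -1.76 ± 0.42 to 0.48 ± 0.55, a log2 change of 2.23 ± 0.40 (SE, adjusted p 0.000551).

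Along the chromosome 19 cluster no gene was called. APOE stood at 9.46, 9.51, 9.32 and 9.55 without DMSO and 9.48, 9.21, 9.71 and 8.92 with it, with overlapping arrays and a log2 difference of -0.13 ± 0.20 (SE, adjusted p 0.76). APOC1 stood at 7.46, 7.34, 7.20 and 7.23 without DMSO and at 7.02, 6.75, 6.78 and 5.68 with it. All 4 DMSO arrays of APOC1 lay below, and the difference of -0.75 ± 0.25 (SE) had an adjusted p of 0.0483, which misses the threshold. Without replicate 4 of D30 + DMSO, the array at 5.68, it was -0.46 (adjusted p 0.171). Its neighbours APOC4 and APOC2, the activator of lipoprotein lipase, differed by -0.73 ± 0.24 (SE, adjusted p 0.0362) and -2.15 ± 0.74 (SE, adjusted p 0.0517). APOC2 was above background on 4 arrays without DMSO and on 2 with it. The values of both clusters are plotted side by side, and the difference between the clusters was not tested.

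**Figure D2:**
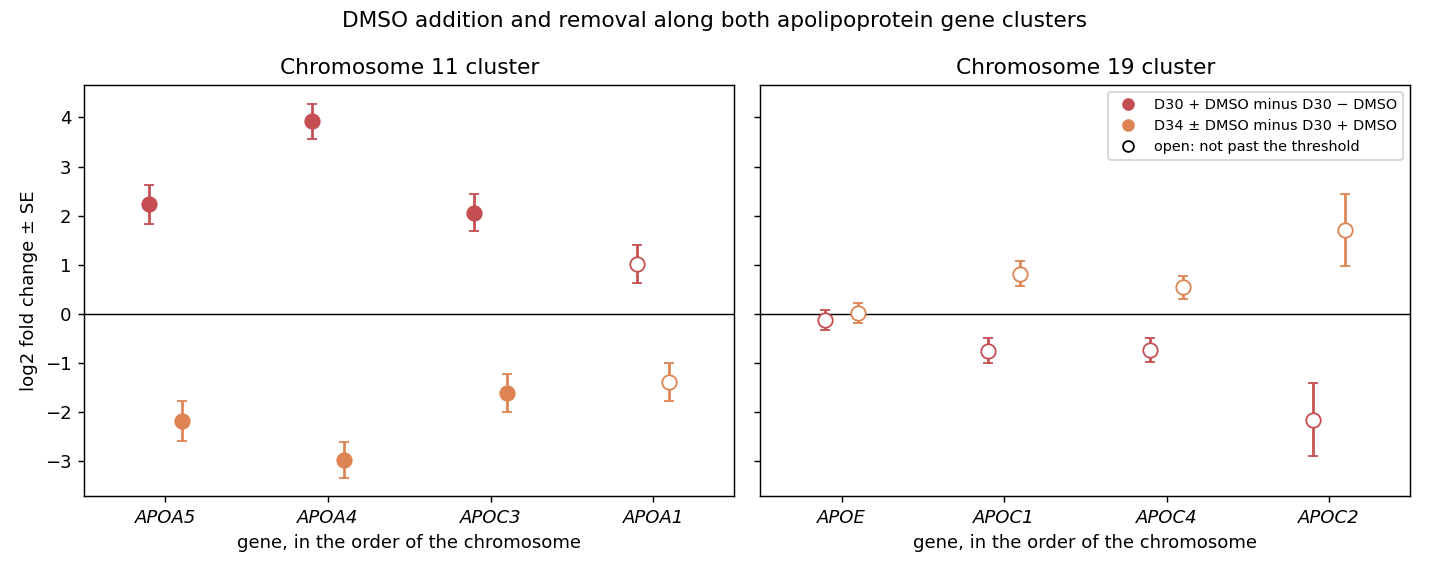
Log2 fold change ± SE (y axis) for the genes of the chromosome 11 and chromosome 19 clusters in chromosome order (x axis), for DMSO addition and DMSO removal, with open points for genes that did not pass the test. On chromosome 11 the addition values run from 1.02 to 3.92 and the removal values from -2.97 to -1.39, and on chromosome 19 the addition values run from -2.15 to -0.13.

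Of the VLDL makers, MTTP stood at 2.65, 2.67, 2.69 and 1.88 without DMSO and at 3.51, 3.61, 3.58 and 3.08 with it. All DMSO arrays were above, but the log2 difference of 0.97 ± 0.31 (SE, adjusted p 0.0339) was not called. Replicate 4 of D30 − DMSO was low, and without it the difference was 0.78 with an adjusted p of 0.116. APOB stood at 3.62 ± 0.16 without and 3.99 ± 0.33 with DMSO, 0.36 apart with an adjusted p of 0.461 and overlapping arrays. APOM was the closest to the threshold among the genes not called: its levels of 2.19, 2.53, 2.40 and 2.62 without DMSO all lay below the 2.93, 3.03, 3.20 and 3.02 with it, by 0.61 ± 0.15 (SE, adjusted p 0.00584), which is 1.53-fold and also under the 2-fold limit. APOH differed by 0.30 (adjusted p 0.452) and APOA2 by -0.51 (adjusted p 0.529), and both overlapped.

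**Figure D3:**
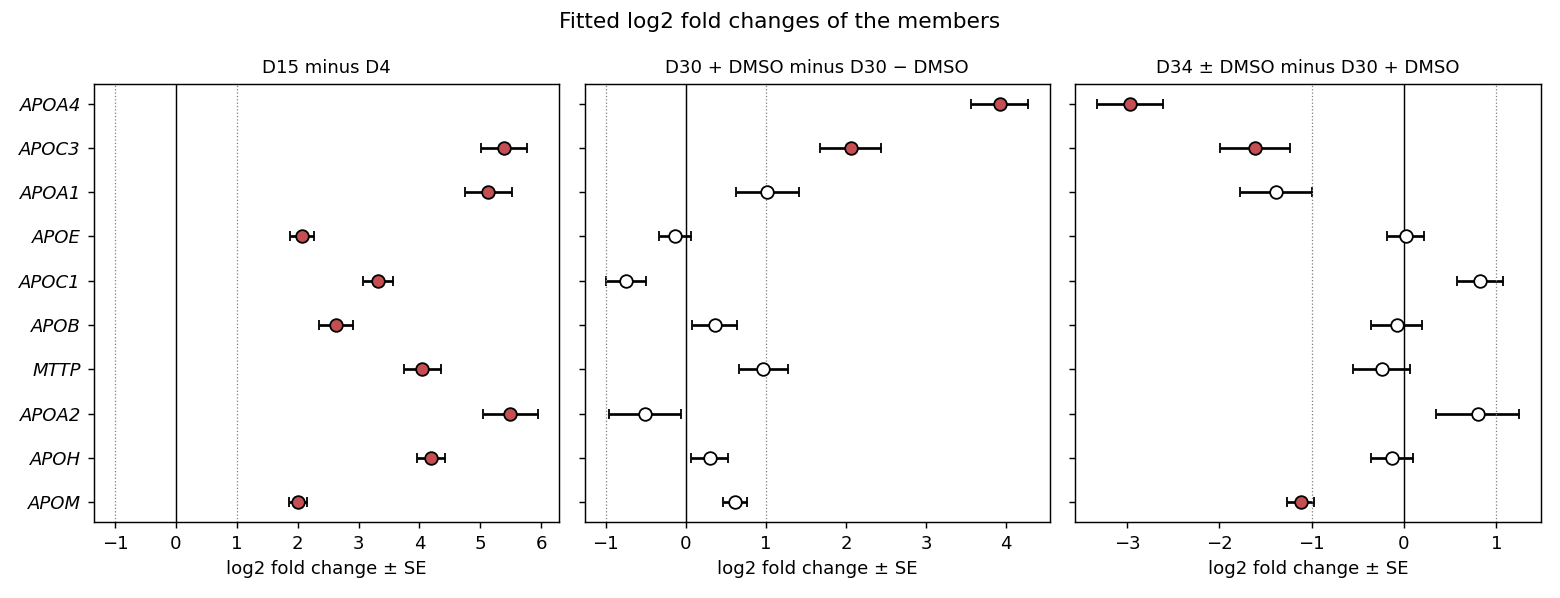
Fitted log2 fold change ± SE (x axis) of the 10 genes (y axis) from D4 to D15, for DMSO addition and for DMSO removal, with filled points for genes called and dotted lines at 2-fold. The D15 panel leaves out APOA4, which was not above background in either condition; there the points lie from 2.01 for APOM to 5.49 for APOA2, and the other panels spread to both sides of 0.

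DMSO removal was tested by D34 ± DMSO against D30 + DMSO. These are the same D30 + DMSO arrays as in the addition, so both comparisons share them and their values are set side by side with no test of their likeness. APOA4, APOC3 and APOM fell, which is 3 of the 10 genes beside 1.98% of all genes called lower, and none rose in limma or in the methods' t-test, beside 5.08% called higher; 1 gene, APOC1, was higher at an unadjusted p under 0.05. The median log2 change of the 10 was -0.19, and -0.04 over all genes. APOA4 stood at -3.87, -3.63, -3.27 and -3.13 after removal, all below the 4 DMSO arrays, by -2.97 ± 0.36 (SE) or 7.84-fold, with an adjusted p of 6.44e-06 in limma (-1.79 with normexp). Within slides 3 and 4 it differed by -2.69 and -3.00. APOM stood at 1.99, 1.77, 2.17 and 1.75, all below the DMSO arrays, by -1.12 ± 0.15 (SE) or 2.18-fold with an adjusted p of 1.53e-05, and by -0.90 and -1.36 within the slides. Its second probe had a log2 change of -1.14 with an adjusted p of 0.000353.

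APOC3 stood at 7.96, 7.49, 7.97 and 7.06 after removal, all below the 4 DMSO arrays. The log2 change of -1.61 ± 0.38 (SE), 3.05-fold, had an adjusted p of 0.00482, just inside the threshold, and within slides 3 and 4 it was -1.21 and -2.22. The call was lost when any 1 of the 8 arrays of both conditions was left out, with log2 changes from -1.72 to -1.42 and adjusted p from 0.00674 to 0.0197, and with the replicate number as a block (adjusted p 0.00505) or the slide as a block (-1.48, adjusted p 0.0111). APOA1 did the reverse: its levels of 6.89, 6.51, 7.09 and 7.19 after removal all lay below the DMSO arrays, its difference of -1.39 ± 0.39 (SE, adjusted p 0.0152) was not called, and with the replicate block it was (adjusted p 0.00136). Within the slides APOA1 differed by -1.06 and -1.37. APOA5 fell to -1.70 ± 0.79, a log2 change of -2.18 ± 0.40 (SE) at an adjusted p of 0.000555.

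The other genes had no call. APOC1 stood at 7.56, 7.02, 7.68 and 7.25 after removal, 0.82 ± 0.25 (SE) higher with an adjusted p of 0.0276 (0.53 and 0.0996 without replicate 4 of D30 + DMSO), and the lowest of these arrays met the highest DMSO array at 7.02. APOA2 was 0.80 higher (adjusted p 0.248). MTTP differed by -0.24 (adjusted p 0.687), with 3 arrays at 3.49, 3.37 and 3.39 and replicate 4 at 2.55, and by -0.02 without that replicate. APOB, APOH and APOE differed by -0.08, -0.13 and 0.02, with overlapping arrays.

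Withdrawn cultures were also set against cultures that never had DMSO, D34 ± DMSO against D30 − DMSO, which differ by 4 days of culture as well. None of the 10 genes was called in limma, beside 1.31% of all genes higher and 0.189% lower. The methods' t-test called none of the 10 either, but only 12 of all genes higher and 0 lower. In limma 3 of the 10 had an unadjusted p under 0.05, a count not set against the share of all genes. The median log2 change was 0.23 beside -0.017 over all genes. APOM lay below on all 4 arrays, by -0.52 ± 0.15 (SE, adjusted p 0.051). APOA4 lay above on all 4, by 0.95 ± 0.36 (SE, adjusted p 0.173). MTTP was 0.73 higher (adjusted p 0.25), and APOC3 and APOA1 differed by 0.46 and -0.37 with overlapping arrays.

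Over the 5 conditions together, all 10 genes passed limma's F-test (Bonferroni-adjusted p under 0.001, and condition means over 3-fold apart), beside 5.3% of all genes. Ordered by mean level, D4 was the lowest condition for the 9 genes measured there, and D4 and D15 have no order for APOA4. D30 + DMSO was the highest for APOA4, APOC3, APOA1, APOM, MTTP, APOB and APOH. For the first 4 of these no array of another condition reached it, a count not set against the share of all genes. For MTTP the D34 ± DMSO arrays overlapped those at the top, and for APOB and APOH all conditions from D15 on overlapped at least their neighbour in the order. D34 ± DMSO was the highest for APOA2 and APOC1, where it overlapped D30 − DMSO. For APOE the means from D15 on lay between 9.33 and 9.46, and the arrays of all 4 conditions overlapped.

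The genes whose levels ran most like each member over the 20 arrays were found by Pearson correlation, a description in which all arrays share the large step from D4 to D15. APOA4 ran closest to SRD5A2, a steroid 5-alpha reductase (r = 0.972), and to CYP2E1, an ethanol-oxidizing cytochrome P450 (r = 0.969). The APOA4 probe was above background on 11 of the 20 arrays, so its r values rest in part on background signal. SRD5A2 and CYP2E1 were picked on these same arrays, so a course shared with APOA4 is part of the choice. With DMSO, SRD5A2 rose by 2.40 and CYP2E1 by 4.75 on the log2 scale, and both fell after removal. APOC3 ran closest to MAT1A, which makes S-adenosylmethionine, and DAO (r = 0.993 each). MTTP ran closest to CYP8B1, the sterol 12-alpha-hydroxylase of bile acid synthesis (r = 0.997), and the coagulation factor F12 (r = 0.995). APOE ran closest to ORM1 (r = 0.988) and ORM2 (r = 0.984), both acute-phase plasma proteins, near-identical copies that probes may not tell apart, and APOH to AQP7P3 (r = 0.996) and GC, the vitamin D-binding protein (r = 0.995). APOA1 ran closest to GJB1, APOA2 to AADAC and HPX, APOB to PTK2B and MREG, APOC1 to C8G and ANXA10, and APOM to SMPDL3A and C11orf52, with r from 0.964 to 0.989. None of the 20 was itself a member of the 10. Among the members the closest pair was APOC3 and MTTP (r = 0.982) and the least close APOA4 and APOC1 (r = 0.606), with the same limit for APOA4.

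Other genes of lipoprotein metabolism were taken as 5 lists. From D4 to D15, 5.68% of all genes were called higher and 3.82% lower. In the lists, 3 of 13 other apolipoproteins tested were called higher and none lower. SAA4, a constitutive serum amyloid A, rose (4.16 on the log2 scale), as did APOA5 (2.50, above background on 1 of 4 arrays at D4). The call of APOF is not a measured change, since its probe was above background on 0 arrays of either condition. Of 25 genes of assembly and secretion, 7 rose, led by the lipid droplet protein CIDEB (3.60), the esterase AADAC (3.51) and PLIN5 (3.15, above background on 2 of 4 arrays at D4). Of 14 lipases, transfer and remodelling proteins, 6 rose, among them the paraoxonase PON1 (3.70). ANGPTL8, an inhibitor of lipoprotein lipase, was not above background at D4 and on 4 of 4 arrays at D15. Of 27 transcriptional regulators, 13 rose and none fell, led by ONECUT1 (4.05), NR0B2 (3.76, above background on 2 of 4 arrays at D4) and CREB3L3 (3.44). HNF4A was above background on 0 arrays at D4 and on 4 at D15. Of 12 receptors and their regulators, LSR rose (1.02) and LRP8 fell (-1.73). The list medians were 0.48, 0.38, 0.39, 1 and -0.03 in this order, beside 3.68 for the 10 genes. From D15 to D30 − DMSO the only call in the lists was ANGPTL8, which rose by 2.75, beside 0.0135% of all genes called higher.

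With DMSO, 2 of the 25 assembly genes, DGAT2 and SAR1B, rose and 1, CIDEC, fell. Of all genes 1.73% were called higher and 4.14% lower. With calls this few, they are read gene by gene and not as a result about a list. DGAT2, which makes the last step of triglyceride synthesis, went from 1.96 ± 0.11 to 3.86 ± 0.20 (a log2 change of 1.90 ± 0.22 SE). SAR1B, a GTPase of the vesicles that carry large lipoproteins out of the endoplasmic reticulum, went from 1.79 ± 0.14 to 2.82 ± 0.20. CIDEC, which enlarges lipid droplets, went from 6.67 ± 0.16 to 5.13 ± 0.08. ANGPTL8 fell by 1.98 on the log2 scale. Of the regulators, NR0B2, a repressor that binds other nuclear receptors, rose by 1.55, and the 26 others were not called. In limma HNF4A differed by 0.54 (adjusted p 0.093) and PPARA by 0.93 (adjusted p 0.00951). HNF4A was dim, at -3.79 ± 0.21 without DMSO and -3.25 ± 0.26 with it. The lowest signal above background ran from -5.6 to -3.88 over the arrays, so its difference was measured near that limit. PPARGC1A, a coactivator of nuclear receptors (-0.98, adjusted p 0.000222), and FOXA3 (-0.88, adjusted p 0.00432) missed only the 2-fold limit. APOA5 was the only call of the 13 other apolipoproteins, and no receptor was called. The list medians were -0.59 for other apolipoproteins, 0.35 for assembly, 0.24 for lipases, 0.08 for receptors and 0.18 for regulators, beside 0.49 for the 10 genes.

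**Figure D4:**
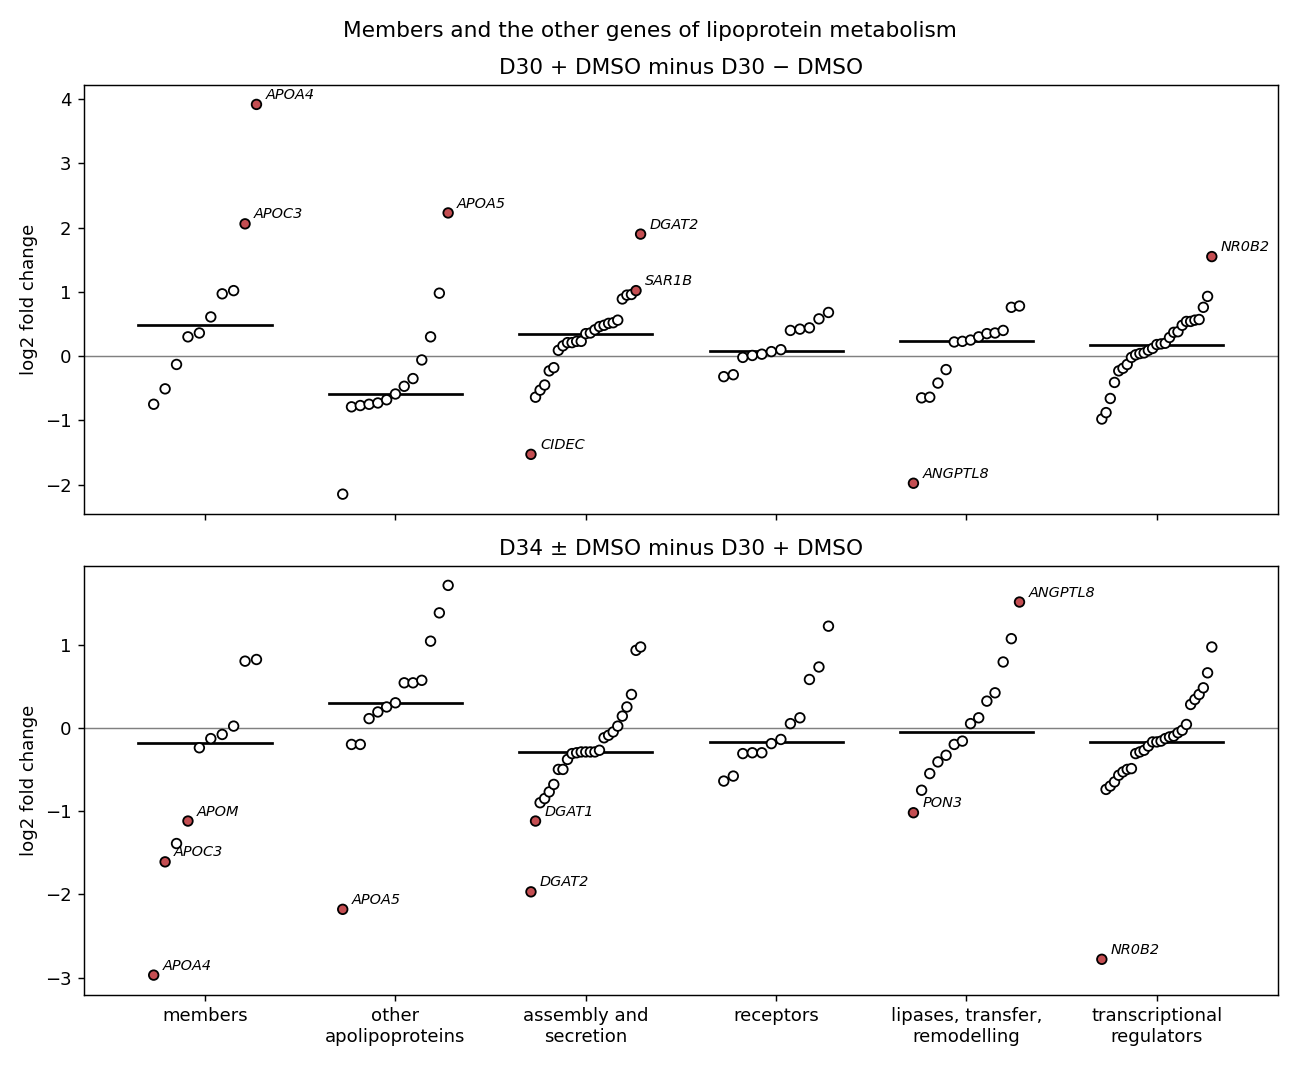
Log2 fold change (y axis) of the 10 genes and of each tested gene of 5 lists (x axis), for DMSO addition (top) and removal (bottom), filled and named where called, with a bar at the median of each list. Called higher with DMSO are APOA4, APOC3, APOA5, DGAT2, SAR1B and NR0B2, and the members' medians are 0.49 and -0.19.

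After DMSO removal DGAT2 fell by 1.97, to 1.89 ± 0.21, and DGAT1, its counterpart, fell by 1.12. These were the 2 calls among the 25 assembly genes, beside 1.98% of all genes called lower and 5.08% higher. NR0B2 fell by 2.78, to -1.56 ± 0.59. ANGPTL8 rose by 1.51 and PON3, a paraoxonase of high-density lipoprotein, fell by 1.02. SAR1B (-0.68, adjusted p 0.00565) and CIDEC (0.40, adjusted p 0.0998) were not called. Against cultures never given DMSO, withdrawn cultures were lower in CIDEC (-1.14) and in PPARGC1A (-1.15). These were the only calls in the 5 lists, beside 0.189% of all genes called lower. Both had lower values with DMSO too, CIDEC with a call and PPARGC1A (-0.98) without. The lists hold 17 other apolipoproteins, 25 genes of assembly and secretion, 15 receptors and their regulators, 16 lipases, transfer and remodelling proteins and 27 regulators, of which 13, 25, 12, 14 and 27 were tested.

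Markers of hepatocytes were read on the same arrays. All 13 rose from D4 to D15, beside 5.68% of all genes called higher. The summed signal of the list went from 157000 to 324000 at D4 to between 1170000 and 1760000 at D15. It was 1510000 to 1550000 at D30 − DMSO, 1590000 to 2640000 at D30 + DMSO and 1510000 to 1850000 at D34 ± DMSO. Such a sum follows the brightest probes of its list, here ALB and HP (9.95 ± 0.09 and 10.17 ± 0.04 at D30 − DMSO), and not the list as a whole. With DMSO, 1 of the 13, AHSG, fell (by 2.66) and 12 were not called, ALB among them at 9.95 ± 0.09 and 10.22 ± 0.38. After removal AHSG rose from 0.67 ± 0.44 to 3.79 ± 0.23, and the other 12 were again not called. Markers of other cells moved as well. Of 7 tested mesenchymal or stellate markers, LUM and DCN fell with DMSO (by 2.68 and 2.98) and rose after removal (2.45 and 2.99). The other 5 were not called in either comparison, and the list medians were -1.15 and 1.18. The summed signal, which follows the brightest probes, was 5000 to 10900 at D30 − DMSO, 1380 to 2340 at D30 + DMSO and 5350 to 11600 at D34 ± DMSO. Of 9 tested biliary or progenitor markers, SOX9 rose by 1.30 and SPP1 fell by 1.78 with DMSO, while after removal SOX9 fell and SPP1 and MUC1 rose. Their summed signal was 91500 to 95300, 68400 to 101000 and 73400 to 111000. KRT7 and KRT19, cytokeratins of the bile duct lineage, were above background on all 4 arrays of every condition. The 8 markers of proliferating cells all fell from D4 to D15 and all rose after removal, with summed signals of 6010 to 9220 at D4, 526 to 1190 at D30 + DMSO and 5490 to 12400 at D34 ± DMSO. The part of these markers' changes in the values of the 10 genes was not tested.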

How the data were processed

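Gene expression was measured on one-colour Agilent arrays, 20 of HepaRG RNA, 4 for each of 5 conditions, which the titles in the labels give. In the Feature Extraction output that the authors deposited for each array, the processed signal is a background-corrected intensity, left unscaled from array to array. The same output holds flags for outlier, saturated and above-background spots. Its version is 10.7.1.1 in the file headers and 10.7.3.1 in the submitters' processing notes. A matrix of log2 values, deposited by the authors too, matched the log2 processed signal minus the 75th percentile of its array, less 1 baseline per probe, to a median difference of 3.53e-07 over 21700 probes, with array shifts of at most 0.00347. Its column medians ran from -0.204 to 0.171, and it served as an alternative. The methods state 4 independent biological replicates per time point. The precision is limited by that number of arrays.

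Spots not flagged as outliers were averaged per probe, divided by the 75th percentile of the array and multiplied by the mean of that percentile over all arrays. After a floor of 1 they were put on the log2 scale, less the log2 of that mean. Of 42405 probes, 26541 were kept, where at least 50% of the spots were well above background on all 4 arrays of 1 condition. They were named by RefSeq accession (24826 of 42405 matched), with the brightest probe for each gene. Of the 22224 genes, 3703 had more than 1. One model over 20 arrays was fitted with limma 3.58.1 (R 4.3.3; tables were read with data.table, version 1.17.8). Pairs were called at an adjusted p under 0.005 and over 2-fold (Benjamini-Hochberg), and the 5 conditions at a Bonferroni-adjusted p under 0.001 and over 3-fold, thresholds taken from the methods. For a probe above background on no array of a condition, the lowest signal above background of each array took its place, which gives no strict bound. In simulated data on the 22224 genes, 80% of 200 genes changed 4-fold were recovered for DMSO addition and 50.5% over the 5 conditions, and 0 others were called. The simulated noise was independent between arrays and held no slide effect, so false calls from slides were not tested.

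The genes and lists were chosen with earlier results of these data known. Named were the 10 genes, the 2 genes most like each, and at most 3 called genes per list and direction with the largest change, and list genes that a sentence on a member refers to, but some genes and 1 of 5 motifs searched are not reported here. Other settings tried were the normalization, background correction, the filter, the floor, the probe of a gene, the methods' tests, blocks for slide and replicate number, and leaving out each array. A block for the scan session and keeping outlier spots were added after seeing the data. Arrays of 1 slide deviated together from their condition means (median r 0.376, against -0.167 between slides).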

Additional observations from a re-analysis of the deposited data

Results flagged for a closer look

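In each of the 10 genes and 5 conditions, the array at either end was compared with the range of its 4 replicates by Dixon's criterion. Of these 50 groups of 4 arrays, 5 had an array set apart, where chance gives about 1 in 20. MTTP in replicate 4 of D30 − DMSO stood at 1.88, with the others at 2.65 to 2.69, and MTTP in replicate 4 of D34 ± DMSO stood at 2.55, with the others at 3.37 to 3.49. APOH in replicate 4 of D30 − DMSO stood at 8.06, with the others at 8.36 to 8.39. These 3 values come from slide 4, and the part of the slide in them was not tested. APOM in replicate 1 of D15 stood at 1.64, with the others at 2.13 to 2.16. Without that array the rise of APOM from D4 to D15 was 2.14 on the log2 scale. APOA4 in replicate 1 of D4 stood at -7.68, with the others at -8.61 to -8.46, but all 4 arrays saw only background there, so these values have no order.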

How the results depend on the processing

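The log2 changes and calls of the 10 genes in the pairs of conditions were recomputed under 37 other settings. Of 1240 values, 1216 kept their side of the threshold and 24 did not. Small uncalled changes could switch sign: APOE after removal ran from -0.12 to 0.14 when 1 array was left out. Of the counts of genes called, the count from D15 to D30 − DMSO was 1, APOA2, with normexp background correction and 0 otherwise, and the count for DMSO addition was 1 where only probes well above background on all arrays were tested. That setting left APOA4 and APOA2 untested in every comparison, so the rise of APOA2 from D4 to D15 and the fall of APOA4 after removal have no value there (8 and 2 genes called). The change of APOA4 from D4 to D15 was 0 with a floor of 10, a setting that puts all its values in these conditions at the floor, and it was not called with normexp, within the 2 conditions alone or in the methods' t-test. All other calls lost or gained among values that could be computed were of APOC3 and APOA1 after DMSO removal: APOC3 lost its call with quantile normalization (-1.37, adjusted p 0.0115), without the filter (adjusted p 0.0113), with the slide block, the scan session block (adjusted p 0.00513), the methods' t-test (adjusted p 0.012) and each of 8 arrays left out. APOA1 gained one with slide as a random block (-1.20, adjusted p 0.00497), the scan session block, the 2 conditions alone and an adjusted p limit of 0.05. The replicate block left the log2 changes as they were and gave 3 genes called after removal, with APOA1 (adjusted p 0.00136) in place of APOC3 (adjusted p 0.00505), and changed no other call. Replicate numbers were not taken as pairs: arrays with the same number had a median r of 0.255 (-0.157 for different numbers) and a lowest of -0.309, and 10 of 20 arrays correlated best with their own number. Over the same settings the number of all genes called ran from 647 to 1481 higher and 408 to 1041 lower from D4 to D15 (1262 and 848 as reported), from 0 to 10 higher from D15 to D30 − DMSO (3), from 176 to 528 higher and 355 to 1177 lower for DMSO addition (384 and 921), from 328 to 1402 higher and 132 to 564 lower for removal (1128 and 439), from 12 to 369 higher and 0 to 105 lower for withdrawn against never treated cultures (291 and 42), and from 831 to 1789 over the 5 conditions (1177). Each lowest count was that of the methods' tests, for D15 to D30 − DMSO with others at 0 too, and the 1789 from an adjusted p limit of 0.05. APOA4 at D4 and D15 lies below what these arrays can measure.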
